A study of Homo sapiens with 4 samples.

Results

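The nuclear-encoded subunits of the respiratory chain are described here in HCT116, a human line established from colon cancer, with and without overexpression of PRSS8, the gene of the membrane-anchored serine protease prostasin. A list of 59 subunit genes of complexes I to V was matched to an Affymetrix array through probe sets annotated with 1 gene symbol, and 53 of them were found among the 22411 genes so named. Each of the 53 had 1 probe set. Complex I held 24 of 26 listed genes, complex II 3 of 4, complex III 5 of 7, complex IV 10 of 11 and complex V 11 of 11. NDUFB8, NDUFS8, UQCRH and COX7C lay on probe sets annotated with several symbols, and SDHB and UQCRFS1 were matched by no probe set with 1 symbol. These 6 genes were not analysed here. NDUFA4, listed with the complex I names, was annotated under its current symbol COXFA4 and is counted with complex IV.

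There were 4 arrays of total RNA, 2 from cells that received the empty vector (control) and 2 from cells that received PRSS8 expression plasmids. All cells were transfected transiently and carried no other change that the labels name, and no source used here states how long after transfection they were collected. Each group has a replicate 1 and a replicate 2, termed biological in the labels. Levels are the deposited log2 values, and a difference is PRSS8 minus control on that scale, so that 1 unit is a doubling.

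The respiratory chain sits in the inner mitochondrial membrane. Complex I takes electrons from NADH and complex II takes them from succinate. Both pass them through ubiquinone to complex III, from where cytochrome c carries them to complex IV, which reduces oxygen. Complexes I, III and IV pump protons, and complex V, the ATP synthase, uses the gradient to make ATP. Most subunits are encoded in the nucleus, while all complexes but complex II also need subunits encoded by mitochondrial DNA. The mitochondrially encoded genes had no probe set with 1 symbol and were not analysed here.

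PRSS8 itself stood at 10.45 and 11.18 on the control arrays and at 18.55 and 18.07 on the PRSS8 arrays, in keeping with the labels. All 7 epithelial markers stood above 7.9 on every array, with KRT8 at 14.01 to 15.05 and CDH1 at 7.95 to 9.28, and their summed level was 76.3 to 78.7 in the controls and 79.6 to 82.0 in the PRSS8 arrays. The leukocyte markers PTPRC, CD3E and CD14 (3.21 to 3.87), all 5 measured fibroblast markers but DCN (3.33 to 4.03) and the 3 endothelial markers (3.12 to 3.84) lay near the median of all genes, which was 4.14 to 4.31 by array. DCN reached 5.13 on control replicate 2, and the lysosomal glycoprotein CD68, which is not confined to leukocytes, stood at 7.23 and 8.11 in the controls and 8.47 and 9.44 in the PRSS8 arrays. The arrays correlated by replicate number: Pearson's r over all genes was 0.996 between the arrays of replicate 1 and 0.989 between those of replicate 2, against 0.930 between the 2 controls and 0.934 between the 2 PRSS8 arrays. Each comparison is therefore also given within a replicate number. The difference between the 2 arrays of replicate 1 is called pair 1 and that of replicate 2 pair 2; each rests on 1 array a group and has no test.

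Subunit genes were at about the same level in both arrays of pair 1 and mostly higher with PRSS8 in pair 2. Their median difference was −0.02 in pair 1 and 0.34 in pair 2, and 0.15 over all 4 arrays, against medians of −0.00, 0.01 and 0.00 over all genes. In pair 1, 24 of the 53 genes (45.3%) were higher, against 49.5% of all genes, and 49 differed by less than 1.2-fold. Pair 2 had 49 of 53 higher (92.5%, against 52.0% of all genes), and 45 of 53 had a larger difference in pair 2 than in pair 1 (84.9%, against 53.1%). Over all arrays 46 were higher (86.8%, against 50.3%). Complexes III and I had the highest medians over all arrays, at 0.28 and 0.18, followed by complex IV at 0.13, complex II at 0.10 and complex V at 0.07. In bulk RNA, a change in the make-up of the culture and a change in RNA per cell cannot be told apart.

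No subunit gene passed the test between the groups. In limma (moderated test with Benjamini-Hochberg adjustment over all genes, threshold 0.05) 0 of 53 were higher and 0 lower, all with an adjusted p of 1, and the lowest unadjusted p was 0.30. The background was the same: 0.0% of all 22411 genes were called higher and 0.0% lower, PRSS8 among those not called, and 42 genes but no subunit gene had an unadjusted p under 0.05. With 2 arrays a group, the smallest two-sided p of an exact permutation test is 0.333. The median over the subunits also rested on single arrays: leaving out PRSS8 replicate 2 gave −0.14 and leaving out PRSS8 replicate 1 gave 0.44, while without the control of replicate 1 it was 0.04 and without that of replicate 2 it was 0.18, each such fit carrying part of the difference between the numbers.

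**Figure D1:**
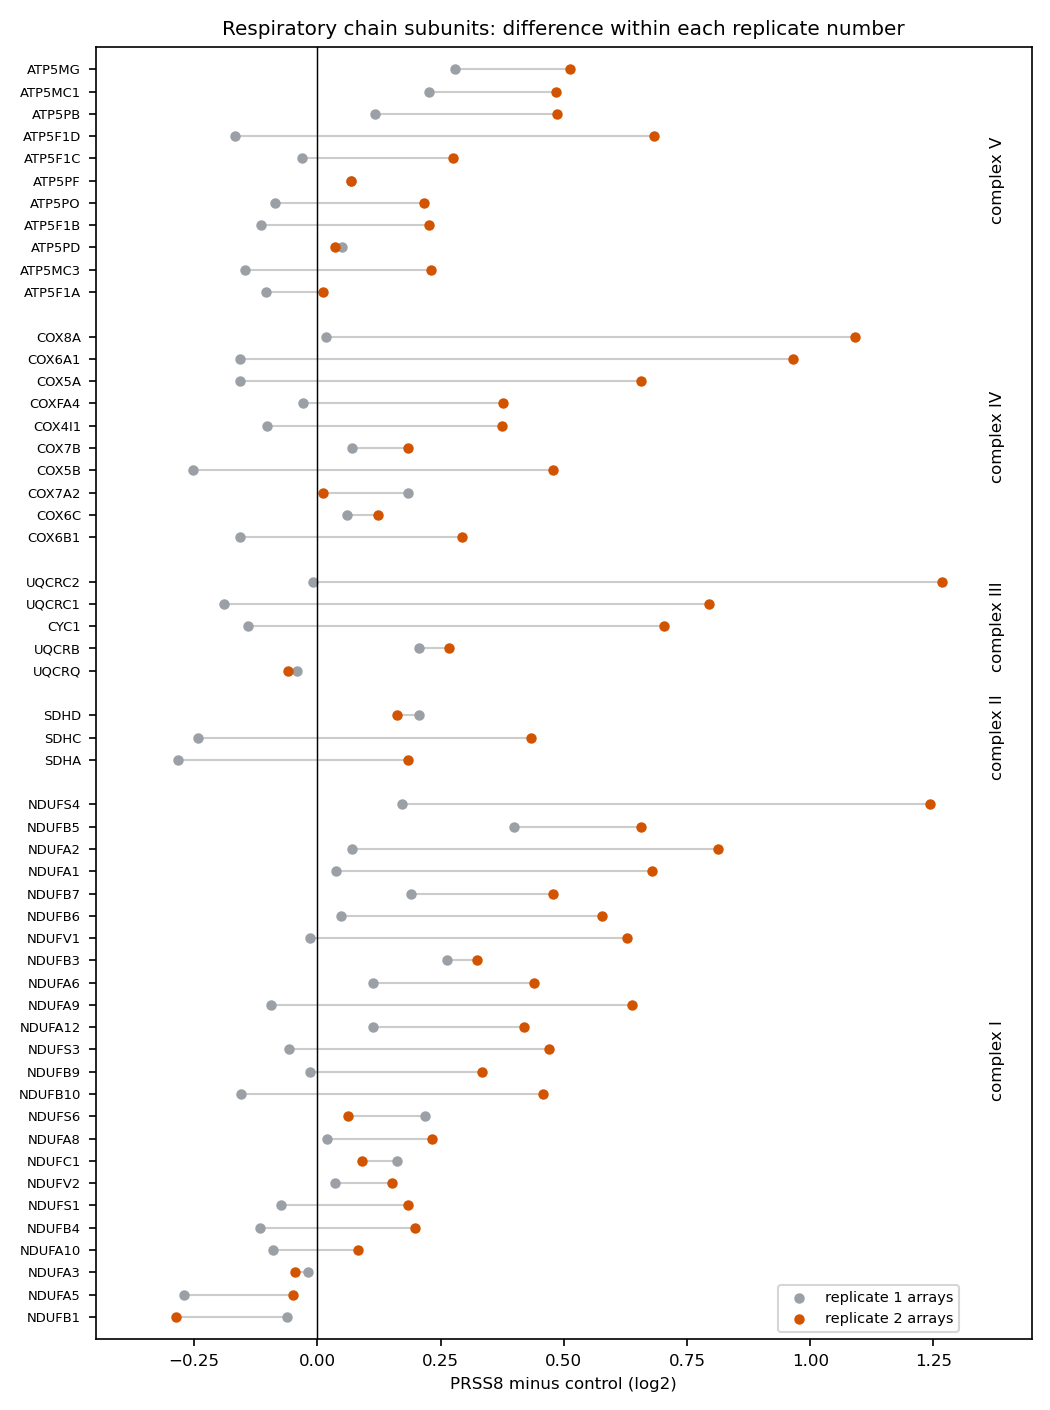
Difference PRSS8 minus control (log2, horizontal axis) of each of the 53 subunit genes, by complex, within replicate 1 (grey) and within replicate 2 (orange); each point is 1 array minus 1 array. Grey points lie between −0.28 and 0.40 on both sides of 0, and orange points lie between −0.29 and 1.27 with 49 of 53 above 0. The 2 points of ATP5PF overlap.

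Counts by pair show the same contrast. In pair 1, 2 genes were at least 1.2-fold higher (NDUFB5 and ATP5MG) and 2 at least 1.2-fold lower (NDUFA5 and SDHA), or 3.77% each way where all genes gave 6.74% and 8.0%. In pair 2, 31 genes (58.5%) were at least 1.2-fold higher and 1, NDUFB1, at least 1.2-fold lower, where all genes gave 17.5% and 9.29%. At 1.5-fold the count in pair 2 was 13 (24.5%, against 5.7% of all genes). They were 6 genes of complex I, 3 of complex III (UQCRC1, UQCRC2 and CYC1), 3 of complex IV (COX5A, COX6A1 and COX8A) and ATP5D of complex V, annotated as ATP5F1D. Higher in both pairs were 24 genes (45.3%, against 26.0% of all genes), and lower in both were 4 (7.55%, against 24.5%): NDUFA3, NDUFA5, NDUFB1 and UQCRQ. The 24 are all the subunits that were higher in pair 1, where 49.5% of all genes were higher. The excess over 26.0% therefore came from pair 2 and shows no agreement between the pairs. NDUFB5, NDUFA3 and NDUFA5, and below COX7A2, COX7B and ATP5J, are named after their values were seen.

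Part of the contrast between the pairs was shared by other genes of like level. Across the array, the difference in pair 2 rose with the level up to 12: its median over other genes went from −0.05 at levels of 3 to 4 to 0.41 at levels of 10 to 12. At levels of 12 to 14 it was lower again, at 0.33. In pair 1 the median stayed between −0.03 and 0.01. The subunit genes had a median level of 7.45, against 4.22 for all genes. Among the 7165 genes between levels of 5.3 and 11.85, the range that holds the subunits from their 10th to their 90th percentile, the median was −0.03 in pair 1 and 0.17 in pair 2. In this range 38.2% of genes were at least 1.2-fold and 14.2% at least 1.5-fold higher in pair 2, 36.0% were higher in both pairs and 17.2% lower in both. Higher in pair 1 were 45.4%, higher in pair 2 73.5%, larger in pair 2 than in pair 1 74.3% and higher over all arrays 64.5%, each of the last 3 between the share of all genes and that of the subunits.

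Each subunit gene was then set against the 500 other genes nearest to it in level. Relative to their median difference, the subunits had a median of 0.01 in pair 1 and 0.15 in pair 2, with 28 and 34 of 53 above the median of their neighbours. The median gene stood at percentile 52.6 of its neighbours in pair 1 and 68.2 in pair 2. In pair 2, 7 subunits lay above the 90th percentile and NDUFB1 alone below the 10th, and in pair 1 these counts were 1 and 2. By definition, about 10% of the neighbours lie beyond each of these percentiles. Across the 53 genes, which share the same arrays and are not independent, the difference in pair 2 correlated with level at a Pearson's r of 0.29, and the difference relative to neighbours at −0.00.

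**Figure D2:**
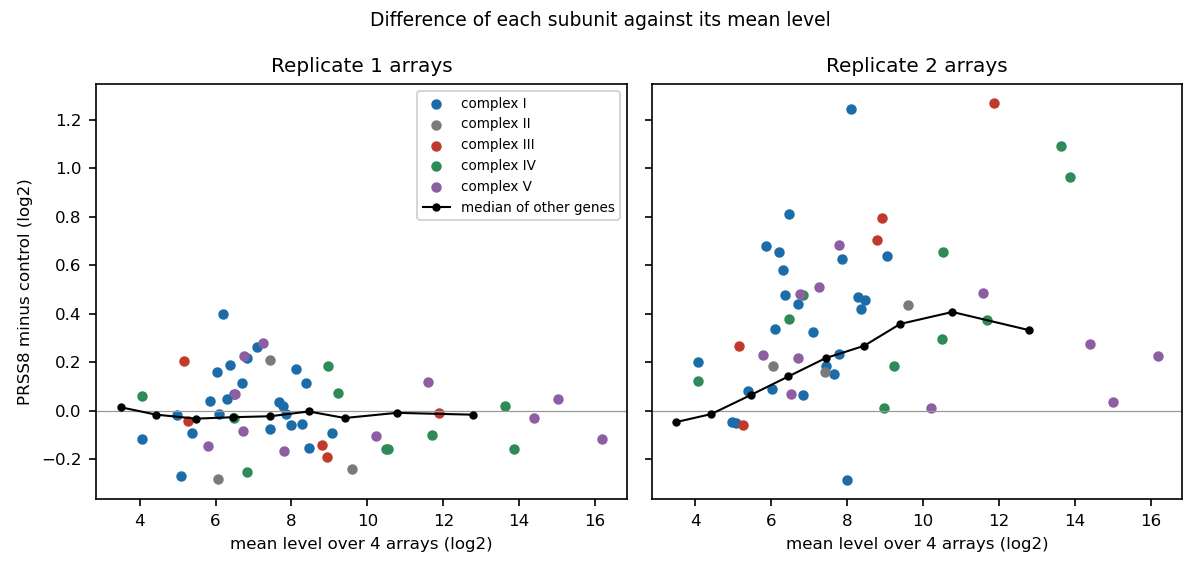
Difference PRSS8 minus control (log2, vertical axis) of each subunit gene against its mean level over the 4 arrays (log2, horizontal axis), in replicate 1 (left) and replicate 2 (right), coloured by complex; the black line joins the medians of all other genes in 9 bins of level. The line stays near 0 on the left. On the right it climbs to 0.41 and ends at 0.33 in the highest bin, and 34 of the 53 genes lie above their neighbours' median.

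Normalization moved these values, and the deposited arrays did not share one distribution. Quantile normalization of the 4 arrays took the median of the subunits to 0.06 over all arrays, 0.00 in pair 1 and 0.10 in pair 2, with 33 of 53 genes higher over all arrays in place of 46. Cyclic loess gave 0.11, 0.01 and 0.24. Median centring went the other way, with 0.18 over all arrays, −0.00 in pair 1 and 0.38 in pair 2. Shares over all genes were not computed after normalization. Relative to genes of like level the medians moved less: in pair 2 the value of 0.15 became 0.12 after quantile normalization and 0.15 after cyclic loess, and in pair 1 it was 0.01 under both. Under quantile normalization the median of complex II over all arrays turned to −0.09, that of complex V in pair 2 to −0.00, and complex III kept the highest median in pair 2, at 0.35.

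The promoters of the subunit genes were read for the letters that known regulators of these genes bind. RefSeq (GRCh38.p14) gave a window of 250 bases before to 50 bases after the start for 44 of the 53 genes. Factors known to bind promoters of nuclear respiratory genes are NRF1, the ETS factor GABPA, YY1 and the receptor ESRRA. The letters searched, on both strands, were GCGCATG for NRF1, CCGGAAG for ETS factors, AAGATGGC for YY1 and CAAGGTCA for ESRRA, and GGGCGG for the general factor SP1. NRF1 letters were in 9 of 44 windows (20.5%), against 5.7% of the 15842 windows of protein-coding genes. ETS letters were in 14 (31.8%), against 2217 of the 15842, YY1 letters in 8 (18.2% against 3.8%) and ESRRA letters in 3 (6.8% against 1.0%), while SP1 letters were about as common in both (59.1% against 57.4%). At least 1 of the first 4 motifs was in 26 windows and none was in 18. The median difference in pair 2 was 0.23 for genes with NRF1 letters and 0.38 without, 0.42 with ETS letters and 0.30 without, and 0.46 with YY1 letters and 0.31 without. It was 0.51 for the 3 genes with ESRRA letters and 0.32 without, and 0.35 with SP1 letters and 0.34 without. Relative to genes of like level, the medians with and without were −0.01 and 0.14 for NRF1, 0.09 and 0.11 for ETS, and 0.18 and 0.11 for YY1. They were 0.31 and 0.08 for ESRRA, the widest of these contrasts but on 3 genes, and 0.08 and 0.18 for SP1. A match is a run of letters and not a shown binding site.

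The 150 bases before the start are printed for 5 genes. NDUFS4, UQCRC2 and COX6A1 had the widest gap between the pairs in complexes I, III and IV. SDHD of complex II and ATP5L of complex V, annotated as ATP5MG, were chosen among the subunits named by the naming rule. The choice asked for NRF1, YY1 or ESRRA letters in the stretch, and theirs hold NRF1 or ESRRA letters. Both had been named for the largest difference of their complex, so that they were higher in both pairs is no result about the letters. All are on the plus strand, written 5′ to 3′, and capitals mark NRF1, ETS, YY1 or ESRRA letters. NDUFS4 lies at chr5:53560489-53560638, UQCRC2 at chr16:21953211-21953360, COX6A1 at chr12:120437963-120438112, SDHD at chr11:112086723-112086872 and ATP5MG at chr11:118401456-118401605.
NDUFS4: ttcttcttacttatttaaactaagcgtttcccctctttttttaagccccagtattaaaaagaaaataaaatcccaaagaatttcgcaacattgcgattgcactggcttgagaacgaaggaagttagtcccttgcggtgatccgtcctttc
UQCRC2: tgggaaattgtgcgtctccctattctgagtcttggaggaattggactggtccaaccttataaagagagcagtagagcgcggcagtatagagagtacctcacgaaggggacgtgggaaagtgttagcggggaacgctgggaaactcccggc
COX6A1: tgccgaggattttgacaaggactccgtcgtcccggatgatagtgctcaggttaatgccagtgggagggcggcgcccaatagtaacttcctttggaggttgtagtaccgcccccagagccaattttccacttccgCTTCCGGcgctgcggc
SDHD: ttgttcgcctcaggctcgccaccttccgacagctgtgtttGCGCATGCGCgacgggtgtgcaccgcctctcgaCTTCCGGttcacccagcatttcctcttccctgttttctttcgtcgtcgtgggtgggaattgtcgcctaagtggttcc
ATP5MG: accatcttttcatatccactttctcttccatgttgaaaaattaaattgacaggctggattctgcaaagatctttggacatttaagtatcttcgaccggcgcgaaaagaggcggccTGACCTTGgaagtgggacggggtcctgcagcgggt
NDUFS4 and UQCRC2, with the largest differences of all subunits in pair 2, had none of these letters in the stretch shown, though the NDUFS4 window held YY1 letters outside it. The capitals of COX6A1 are ETS letters on the minus strand, and its window held NRF1 letters outside the stretch. SDHD shows overlapping NRF1 letters on both strands and then ETS letters, and ATP5MG shows ESRRA letters on the minus strand. Outside the stretch, the SDHD window held ESRRA letters and the ATP5MG window ETS letters.

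Complex I had 13 of 24 genes higher in both pairs (54.2%, against 36.0% of genes of like level). Lower in both were 3 (12.5%, against 17.2%). The pairs had medians of 0.03 and 0.38, or 0.06 and 0.20 relative to genes of like level. NDUFS4, an accessory subunit of the peripheral arm, stood at 8.38 and 7.13 in the controls and at 8.55 and 8.37 with PRSS8. The control of replicate 2 was low, and the other 3 arrays lay within 0.2 of each other. Its difference was 0.71 (SE 0.70, limma, n = 2 a group, adjusted p = 1), with 0.17 in pair 1 and 1.24 in pair 2, a 2.37-fold difference in pair 2. NDUFV1, which carries the flavin that oxidises NADH, stood at 7.26 and 8.16 in the controls and at 7.24 and 8.78 with PRSS8, so both arrays of replicate 2 were above both of replicate 1. Its difference was −0.02 in pair 1 and 0.63 in pair 2. NDUFS1, the large iron-sulfur subunit of the same arm, differed by −0.07 and 0.18, from 8.04 and 6.80 in the controls to 7.96 and 6.98. Its difference over all arrays, 0.05, turned to −0.04 under quantile normalization.

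Both PRSS8 arrays stood above both controls in 5 complex I genes. Over all complexes 9 genes did so, or 17.0%, and 0 had both PRSS8 arrays below, where 5.53% of all genes and 5.89% of those of like level had both above and 5.56% of all genes both below. None of the 9 gaps between groups reached 1.2-fold. After quantile normalization 3 genes had their groups apart, after median centring 5 and after cyclic loess 6, with no share over all genes computed for these counts. NDUFB3, a subunit of the membrane arm, stood at 6.98 and 6.94 in the controls and 7.24 and 7.26 with PRSS8, and had the widest gap of the 9, 0.26. Its replicates lay close together, and the pairs gave 0.26 and 0.32. NDUFA6, which helps bind the mitochondrial acyl carrier protein, stood at 6.54 and 6.59 against 6.65 and 7.03. NDUFB6 in the membrane arm was at 6.28 and 6.02 against 6.33 and 6.60, and NDUFC1 at 5.94 and 6.01 against 6.10 and 6.10. The iron-sulfur subunit NDUFV2 differed least of these, at 7.64 and 7.60 against 7.68 and 7.75, a difference of 0.09 that turned to −0.03 under quantile normalization. The gap between groups was 0.04 to 0.09 in these 4 genes.

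NDUFB1, a small subunit of the membrane arm, had the lowest difference of all subunits, −0.17 (SE 0.62). It stood at 7.73 and 8.44 in the controls and at 7.67 and 8.15 with PRSS8, with −0.06 in pair 1 and −0.29 in pair 2. The groups overlapped, and in pair 2 it was at percentile 7.0 of the genes of like level. The peripheral arm (11 genes, median 0.27, with 0.04 and 0.44 by pair) and the membrane arm (13 genes, 0.15, with 0.02 and 0.32) both showed the higher median in pair 2. This division, and that of complex V below, was made with the values known.

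Complex II has no mitochondrially encoded subunit and also works in the tricarboxylic acid cycle. SDHA, the flavoprotein that oxidises succinate, stood at 6.15 and 6.02 in the controls and at 5.87 and 6.20 with PRSS8, differing by −0.28 in pair 1 and 0.18 in pair 2. SDHC, a membrane anchor, stood at 9.46 and 9.64 against 9.22 and 10.08, and differed by −0.24 and 0.43, or 0.10 over all arrays and −0.09 after quantile normalization. In both genes the PRSS8 arrays lay on either side of the controls. The other anchor, SDHD, was at 7.90 and 6.77 against 8.11 and 6.93, with 0.21 and 0.16 by pair, and was the 1 gene of the 3 that was higher in both pairs. The median of complex II relative to genes of like level was −0.21 in pair 1 and 0.07 in pair 2, on 3 genes.

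Complex III showed the widest contrast between the pairs, with a median of −0.04 in pair 1 and 0.70 in pair 2, or −0.02 and 0.41 relative to genes of like level, on 5 genes. UQCRC2, a core subunit, stood at 12.28 and 10.87 in the controls and at 12.27 and 12.14 with PRSS8. As for NDUFS4, the control of replicate 2 was low and the other 3 arrays lay together. The difference was 0.63 (SE 0.85), with −0.01 and 1.27 by pair. UQCRC1, its partner core subunit, stood at 8.43 and 9.12 against 8.24 and 9.91, with −0.19 and 0.80. Cytochrome c1 (CYC1), which hands electrons to cytochrome c, stood at 8.40 and 8.91 against 8.26 and 9.61, with −0.14 and 0.70. In these genes, unlike in UQCRC2, the PRSS8 array of replicate 2 was the highest of the 4 and that of replicate 1 the lowest. The small subunit UQCRB had its groups apart, at 5.10 and 4.98 against 5.30 and 5.25, with 0.21 and 0.27. UQCRQ, another small subunit, was at 5.02 and 5.59 against 4.98 and 5.53, with −0.04 and −0.06. In pair 2 UQCRC2 had the highest difference of the 53 genes, and UQCRQ was one of the 4 that were lower.

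Complex IV had 4 of 10 genes higher in both pairs (COX6C, COX7A2, COX7B and COX8A), or 40.0%, against 36.0% of genes of like level. All 10 were higher in pair 2, against 73.5%. The medians by pair were −0.07 and 0.38, or −0.04 and 0.18 relative to genes of like level. COX8A, a small subunit in the membrane, stood at 12.82 and 13.89 in the controls and at 12.84 and 14.98 with PRSS8. The 2 arrays of replicate 1 were alike and replicate 2 was higher in both groups. It had the largest difference of the complex, 0.55 (SE 0.97), with 0.02 and 1.09 by pair. COX6A1, the isoform of subunit 6A found outside heart and muscle, was at 13.88 and 13.47 against 13.72 and 14.43. It had the widest gap between the pairs, −0.16 and 0.97. COX4I1, a subunit of early assembly, stood at 11.59 and 11.66 against 11.49 and 12.04, with −0.10 and 0.37, and its difference of 0.14 turned to −0.05 under quantile normalization. COX5A, its assembly partner, was at 9.99 and 10.85 against 9.83 and 11.50, with −0.16 and 0.66. Relative to genes of like level, the value of COX4I1 in pair 2 was −0.02 and that of COX5A 0.27. COX6B1, on the side of the membrane where cytochrome c docks, had the smallest difference, 0.07 (SE 1.11), at 9.68 and 11.24 against 9.52 and 11.53, which became −0.17 after quantile normalization and −0.04 after cyclic loess. The arrays of replicate 2 exceeded those of replicate 1 by 1.56 in the controls and 2.01 with PRSS8. The groups of COX6C did not overlap, at 4.06 and 3.99 against 4.12 and 4.11, but this lies near the median level of all genes, where detection could not be judged. The gap between them was 0.05.

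**Figure D3:**
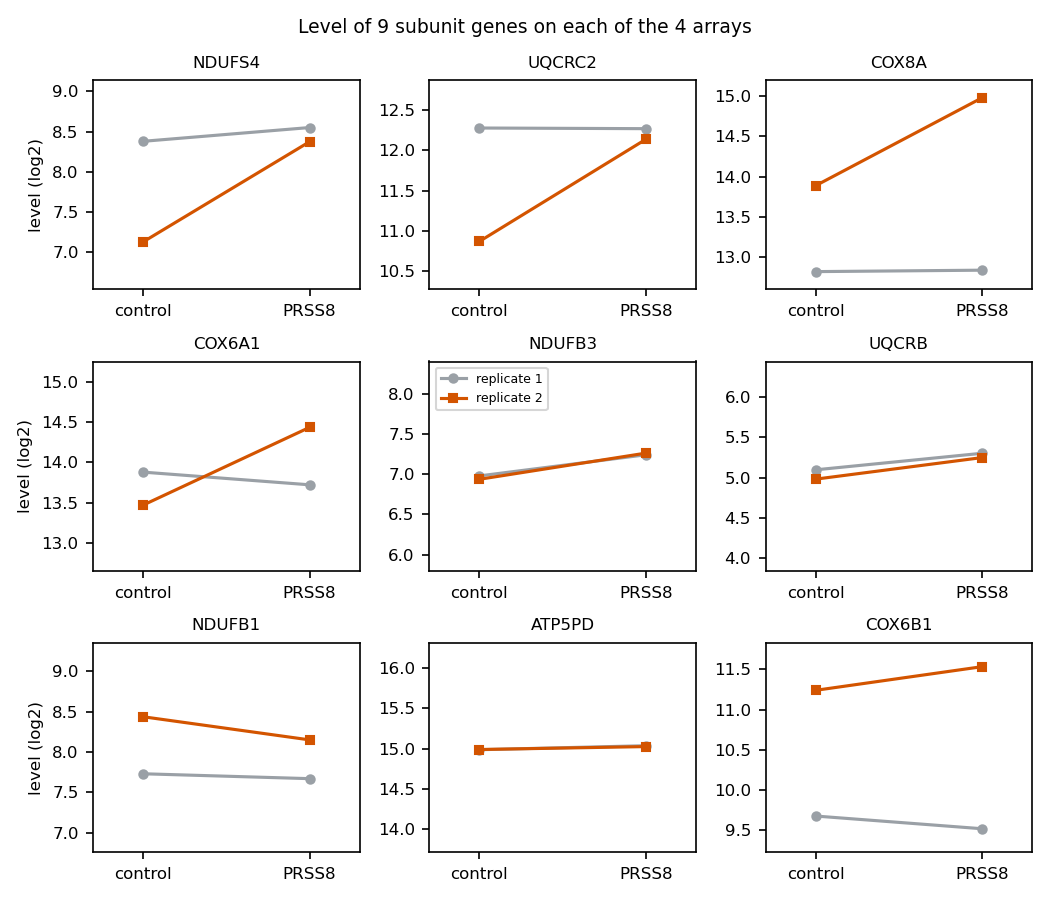
Level (log2, vertical axis) of 9 subunit genes on each array, with lines joining the arrays of replicate 1 (grey circles) and of replicate 2 (orange squares) from control to PRSS8; every panel spans the same range in log2 units. NDUFS4 and UQCRC2 show a low control of replicate 2, COX8A and COX6B1 a wide distance between the replicates, and NDUFB3, UQCRB and ATP5PD groups that do not overlap.

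Complex V had all 11 genes higher in pair 2, against 73.5% of genes of like level. In this complex 5 were higher in both pairs (45.5%, against 36.0% of genes of like level). They were ATP5F1, ATP5G1, ATP5H, ATP5J and ATP5L, annotated as ATP5PB, ATP5MC1, ATP5PD, ATP5PF and ATP5MG. The medians of complex V, −0.03 and 0.23 by pair, came to −0.01 and 0.07 relative to genes of like level, so the excess of pair 2 was near that of other genes at such levels. The catalytic beta subunit ATP5B (ATP5F1B) was the brightest of the 53, at 16.22 and 16.11 in the controls and 16.11 and 16.34 with PRSS8. Its difference of 0.06 became −0.04 after either quantile normalization or cyclic loess. Its partner, the alpha subunit ATP5A1 (ATP5F1A), was at 10.25 and 10.23 against 10.14 and 10.24, and had the smallest difference of the complex, −0.05 (SE 0.73). In both genes all 4 arrays lay within 0.3 of each other. ATP5D (ATP5F1D), the delta subunit of the central stalk, had the widest gap between the pairs, −0.17 and 0.68, at 6.97 and 8.37 against 6.81 and 9.05.

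ATP5L (ATP5MG), subunit g of the membrane part, had the largest difference of complex V, 0.40 (SE 0.55). It stood at 6.79 and 7.33 in the controls and 7.07 and 7.84 with PRSS8, with 0.28 and 0.51 by pair, and the groups overlapped. ATP5G1 (ATP5MC1) and ATP5G3 (ATP5MC3) encode the same c subunit of the rotor ring. The first stood at 6.02 and 7.15 against 6.24 and 7.63, with 0.23 and 0.48, and the second at 5.72 and 5.84 against 5.57 and 6.07, with −0.15 and 0.23. Of the peripheral stalk, subunit b, ATP5F1 (ATP5PB), had its groups apart at 11.66 and 11.23 against 11.78 and 11.71, and subunit d, ATP5H (ATP5PD), at 14.99 and 14.99 against 15.04 and 15.03. The gap was 0.05 in ATP5F1 and 0.04 in ATP5H, whose difference of 0.04 turned to −0.06 under cyclic loess. The 4 genes of the F1 head and central stalk had medians of −0.11 and 0.25 by pair, and the 7 of the peripheral stalk and membrane part 0.07 and 0.23.

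The difference between the replicates exceeded that between the groups in 41 of the 53 genes. The share of all genes, or of genes of like level, for which this held was not computed. Replicate 2 was above replicate 1 in both groups in 33 genes (62.3%), against 58.6% of all genes and 32.3% of those of like level. It was below replicate 1 in both groups in 11 (20.8%, against 27.4% of all genes), and the share below among genes of like level was not computed. The median of replicate 2 minus replicate 1 was 0.18 in the controls, from −1.41 (UQCRC2) to 1.56 (COX6B1), and 0.54 in the PRSS8 arrays, from −1.18 (SDHD) to 2.25 (ATP5D). For genes of like level these medians were −0.43 and −0.27. Complex IV had the highest of these medians among the complexes, 0.61 and 1.08, with replicate 2 above replicate 1 in both groups in 8 of 10 genes. No source used here states what sets the numbers apart.

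Other lists around the respiratory chain showed the same order of the pairs to unequal degrees, with 0 genes called by limma in any of them. The 16 measured of 20 further nuclear subunits had medians of −0.03 in pair 1 and 0.41 in pair 2, and 0.32 relative to genes of like level in pair 2, with 15 of 16 larger in pair 2 than in pair 1, where 74.3% of genes of like level to the listed subunits and 53.1% of all genes were. Among them NDUFAB1, the mitochondrial acyl carrier protein, differed by 0.86 (SE 0.94), with 0.20 and 1.51 by pair. NDUFS5, a small complex I subunit, differed by −0.20 (SE 0.78), with −0.19 and −0.21. The 5 measured of 7 isoforms restricted to other tissues, such as COX6A2 of heart and muscle at 3.26 to 3.66, had a median level of 3.44, under the median of all genes.

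Assembly factors, which build the complexes without staying in them, had medians of −0.01 and 0.18 in 46 of 48 genes, or 0.01 and 0.05 relative to genes of like level. UQCC2, which acts in cytochrome b synthesis, differed most, by 0.58 (SE 0.85), with 0.41 and 0.75. SDHAF1, which helps SDHB receive its iron-sulfur clusters, differed by −0.29 (SE 0.24), with −0.14 and −0.43. The complex I assembly factor TIMMDC1 was the brightest, with 0.11 and 0.99. Cytochrome c (CYCS), the largest difference of the 5 electron carriers and inhibitor genes at 0.72 (SE 1.14), stood at 11.30 and 9.19 against 11.80 and 10.13, with 0.50 and 0.94. ETFDH, which passes electrons from fatty acid oxidation to ubiquinone, differed by −0.07 (SE 0.49).

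Regulators of mitochondrial biogenesis and DNA differed little by pair, with medians of −0.00 and 0.09 in 14 of 15 genes and −0.10 relative to genes of like level in pair 2. GABPB1, the partner of GABPA, differed by 0.24 (SE 0.62), with 0.31 and 0.17. POLG2, the accessory subunit of the mitochondrial DNA polymerase, differed by −0.35 (SE 0.71), with −0.35 and −0.36, and the mitochondrial transcription factor TFB2M by 0.15 (SE 0.76). Enzymes of the tricarboxylic acid cycle had the highest median of these mitochondrial lists in pair 2, 0.67, against 0.02 in pair 1, in 11 of 13 genes. Relative to genes of like level it was 0.33. DLST of the oxoglutarate dehydrogenase complex differed by −0.03 and 1.24, and citrate synthase (CS) by −0.20 and 0.44. The difference of CS over all arrays, 0.12, became −0.07 after quantile normalization.

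The 74 mitochondrial ribosomal proteins had medians of 0.05 and 0.31, or 0.09 and 0.16 relative to genes of like level. Of them, 42 (56.8%) were higher in both pairs, against 26.0% of all genes and 36.0% of genes of like level to the subunits. MRPL3 differed by 0.68 (SE 1.10), with 0.18 and 1.19, MRPL58 by 0.63 (SE 0.78), with 0.31 and 0.96, and MRPS25 by −0.13 (SE 0.23). Cytosolic ribosomal proteins had medians of −0.03 and 0.18 in 56 genes, or 0.01 and −0.08 relative to genes of like level. RPL9 differed by 0.04 and 0.89, and RPL26, the brightest, by 0.18 and 0.01. The 7 epithelial markers had medians of 0.09 and 0.88, or 0.11 and 0.53 relative to genes of like level, so a higher value in pair 2 was also measured in a list with no mitochondrial role. The part of these markers in the subunits' values was not tested.

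**Figure D4:**
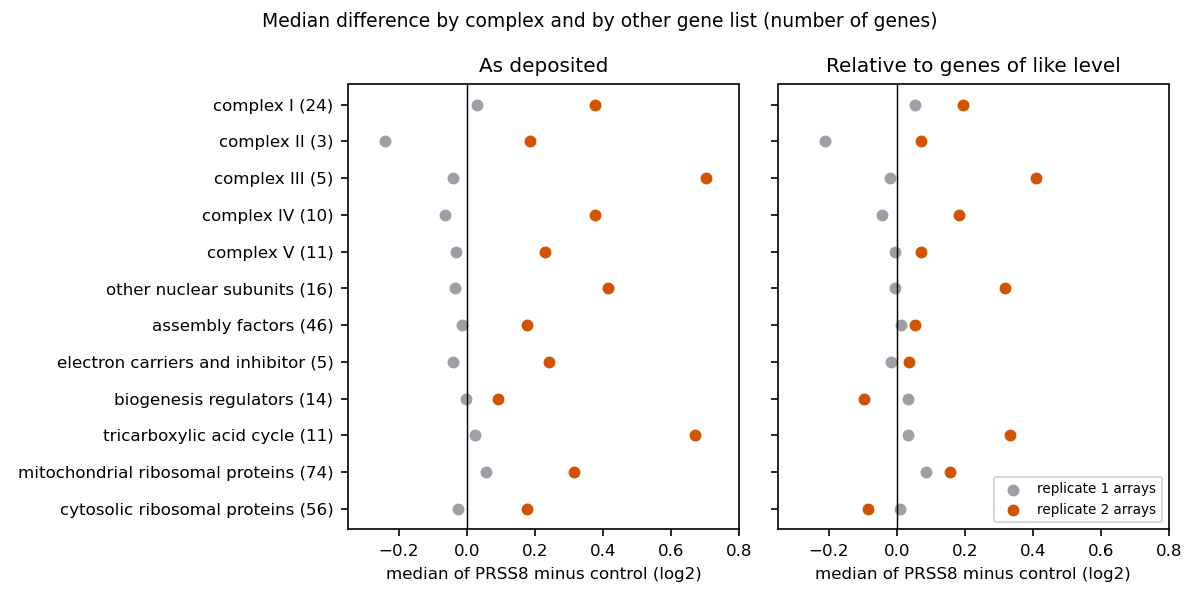
Median difference PRSS8 minus control (log2, horizontal axis) by complex and by other gene list, with the number of genes in brackets, as deposited (left) and relative to the 500 genes nearest in level (right), in replicate 1 (grey) and replicate 2 (orange). On the left the orange point is right of the grey one in every list; on the right it is left of it in 2, the regulators and the cytosolic ribosomal proteins.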

How the data were processed

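Total RNA of 4 transfected cultures was hybridised to Affymetrix arrays. The authors deposited log2 levels for each probe set. According to the submitters' processing notes the tools were RMA and Affymetrix Expression Console 1.3.1; no source used here states whether the 4 arrays were processed as one set. The number of arrays limits the precision, and detection could not be computed.

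Of 67528 transcript clusters (gene-level probe sets), 23781 had 1 symbol in GEO's platform annotation and 1543 several. Current symbols came from the Entrez identifier in 21497 cases and from an older symbol in 306. The brightest probe set by mean over the 4 arrays stood for each of the 528 genes with several, leaving 22411 genes. PRSS8 and control arrays were compared in R 4.3.3 with limma 3.58.1 (lmFit, eBayes with an intensity trend, two-sided), with Benjamini-Hochberg adjustment over all genes. Each gene had 2 residual degrees of freedom, and the standard errors (SE) hold the difference between replicate numbers. The fit was tested on simulated data with known answers, drawn with independent noise and no difference between replicate numbers. That test does not show how the fit behaves on arrays that correlate by replicate number, as these do. Differences were also set against the 500 genes nearest in mean level, subunits left out. Within a replicate number, and for gene lists, values are descriptions with no test.

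The subunits, lists, motifs and naming rule were chosen with earlier results of these data known. In each complex the rule named the largest and smallest difference, the widest gap between pairs, genes with groups apart and fixed core subunits. In each other list it named the largest and smallest difference and the brightest gene. The alternatives were 3 normalizations, no intensity trend, a filter on dim genes, the mean of probe sets, 200 or 1000 neighbouring genes, larger gaps between groups, the replicate number as a block and leaving out each array.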

Additional observations from a re-analysis of the deposited data

How the results depend on the processing

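Every alternative that was run called 0 of the 53 subunit genes, and only leaving out control replicate 1 (62 genes) or control replicate 2 (8 genes) called any gene at all. Quantile normalization left 15 subunits higher in both pairs, 8 lower in both and 3 with both PRSS8 arrays above both controls. Median centring left 5 of the last, and a gap of at least 1.2-fold or at least 1.5-fold left 0. The shares over all genes under these settings were not computed, so it cannot be said whether these counts exceed the background. With one array left out, where the lone array of a group is assumed to vary like the other group, the median difference was −0.14 to 0.44 over all subunits, −0.10 to 0.43 for complex I, −0.22 to 0.12 for complex II, −0.32 to 0.56 for complex III, −0.43 to 0.71 for complex IV and −0.059 to 0.27 for complex V. Subunits with both groups apart then numbered 14 to 41 above and 1 to 24 below. A lone array falls outside the other group more easily than 2 arrays do. The shares over all genes were not computed for these fits either, so these counts cannot be set against the background. Of 31 named subunits, 6 took the other sign under quantile normalization, 3 under cyclic loess (COX6B1, ATP5PD and ATP5F1B) and 6 to 12 with one array left out. With NDUFA4 counted in complex I, the medians of complexes I and IV were 0.17 and 0.13. Leaving NDUFA4 out (0.15 over all subunits) and the normalized values relative to genes of like level were chosen after seeing the data.

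The replicate number as a block called 0 subunits and 0 genes. In that limma fit 1174 of 22411 genes had an unadjusted p under 0.05, 1 of them among the 53 subunits. This is about the share of genes that such a threshold passes when no gene differs. Deviations from the group means correlated at 0.91 between arrays of one number, but with 2 pairs, and labels that tie a number to no shared batch, this is only a hint of pairing. Detection at low levels, as for COX6C, and the 2 arrays a group limit what these data can show.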
